A study of Mus musculus with 12 samples.

Results

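The genes described here are receptors of the ERBB family (Egfr, Erbb2 and Erbb3) and the 7 ligands of the EGF family that are shed from cells and bind EGFR (Egf, Tgfa, Areg, Ereg, Hbegf, Btc and Epgn), 10 genes in all. They were chosen by name, and each was read from the probe set annotated to that gene alone, the brightest where there were several. Of the 10, 9 were measured in this way, out of 22180 genes with a probe set of their own. No probe set carried the name Areg in the annotation used here, so amphiregulin was not analysed. The RNA came from sternal cartilage without the xiphoid process, taken from 4-wk-old C57BL/6J mice, 6 WT and 6 QT, and each mouse was hybridised to an Affymetrix Mouse Gene ST array of its own. QT mice, named TIMPless in the labels, lack all 4 tissue inhibitors of metalloproteases in the whole body. Their Timp1 allele carries stop codons in the third exon, and their Timp2, Timp3 and Timp4 alleles have lost coding exons. Values are log2 intensities after robust multiarray average (RMA) processing by the authors, and differences are QT minus WT on that scale.

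ERBB receptors are tyrosine kinases of the cell surface. Their ligands are made as membrane-anchored precursors, and metalloproteases of the ADAM family, ADAM17 foremost, cut them loose so that they can reach receptors on the same or on neighbouring cells. TIMP3 inhibits ADAM17, which is why transcripts of ligands and receptors are of interest in mice without TIMPs. In cartilage, EGFR signalling acts on chondrocytes of the growth plate and of the joint surface, and TGFα is known to oppose the chondrocyte phenotype in cultured rat cells. The arrays measure transcripts and carry no information on how much ligand was released.

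Chondrocyte genes were strongly expressed in every mouse. All 10 markers (among them Col2a1, Acan and Sox9) had means above the median of every array, and their mean log2 value ran from 11.52 to 11.87 in WT and from 11.25 to 11.66 in QT. Of these 10 markers, 0 were called (3 at an unadjusted p under 0.05), and their median difference was -0.12. Comp (-0.52, limma adjusted p = 0.0014) passed the adjusted p alone, with no overlap between genotypes. All 4 Timp genes were lower in QT, by -0.87 (Timp1) to -1.66 (Timp4), and Timp1 alone overlapped between genotypes. Xist lay between 5.17 and 5.34 in WT replicates 5 and 6 and between 11.91 and 12.22 in the remaining 10 mice, and the Y-linked gene Eif2s3y at 9.06 to 9.20 against 3.50 to 3.99. The sexes were thus unequally spread over the genotypes. Skeletal muscle and adipocyte markers moved with genotype: 7 of 12 and 7 of 9 were called lower in QT. The muscle mean ran from 9.07 to 10.59 in WT and from 8.09 to 9.08 in QT, and the adipocyte mean from 8.37 to 9.39 and from 7.63 to 8.21. Of 7 markers of the osteoblast lineage, which includes osteocytes, 2 were called higher, Dmp1 (1.58) and Mepe (1.57). The others differed by -0.10 (Sp7) to 0.22 (Ibsp), and the median difference of the list was 0.16. The mean of the list, with Dmp1 and Mepe in it, ran from 8.85 to 9.73 in WT and from 9.88 to 10.12 in QT. The part of these cells in the differences given below was not tested. In such bulk tissue, fewer cells of a type and less RNA per cell cannot be told apart.

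None of the 9 measured receptor and ligand genes was called in either direction, by limma with the Benjamini-Hochberg adjustment or with Storey's q value in its place. A gene was called at an adjusted p under 0.05 (adjusted over all 41345 probe sets) and a fold change of at least 1.5. By that rule 2.3% of the 22180 genes were called, 0.875% higher and 1.43% lower. Every one of the 9 genes overlapped between the genotypes, whereas 4.92% of all genes did not. At an unadjusted p under 0.05 limma gave 2 of the 9, Hbegf and Tgfa, and 20.5% of all genes. Without WT replicates 5 and 6 together, neither Hbegf (limma unadjusted p = 0.0641) nor Tgfa (0.0764) stayed under 0.05. The median difference over the 9 genes was 0.0067, beside -0.0017 over all genes. Signal also limited what could be seen. Egfr, Erbb2, Hbegf and Tgfa lay above the medians of all 12 arrays (6.15 to 6.20), while Erbb3, Egf, Ereg, Btc and Epgn lay below them in both genotypes and are not shown to be above background.

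**Figure D1:**
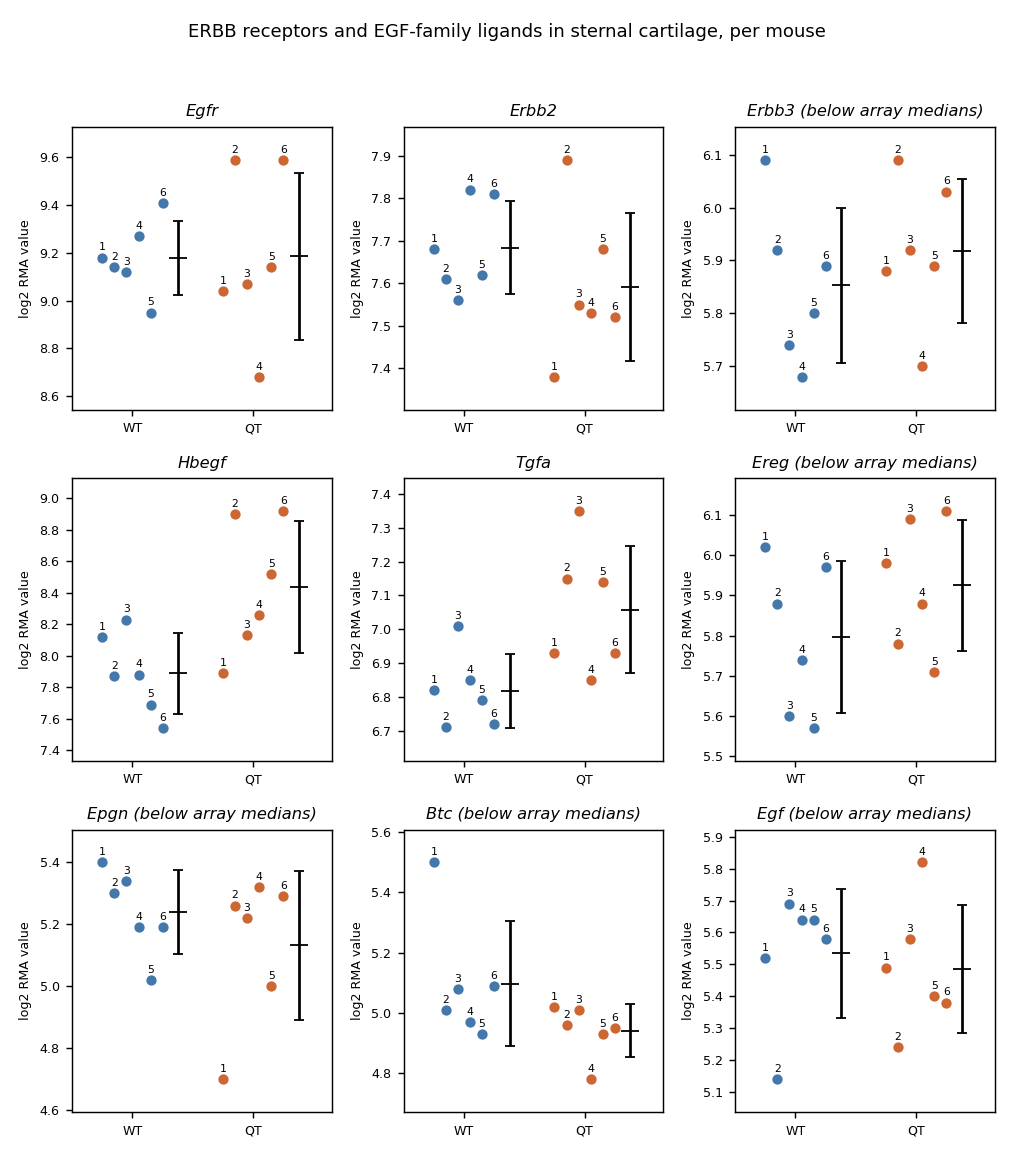
Log2 RMA value of each receptor and ligand gene in each mouse (1 point per mouse, numbered by replicate, WT in blue and QT in orange), with the mean and SD of each genotype (n = 6) as a black bar beside the points. The value axis differs between panels. The genotypes overlap in all 9 panels, and Hbegf has the largest shift, with 4 QT mice above the highest WT mouse.

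The receptors differed little between genotypes. EGFR, the receptor of all the ligands measured here, had a clear transcript signal. Egfr ran from 8.95 (median 9.16) to 9.41 in WT and from 8.68 (median 9.11) to 9.59 in QT. Its means were 9.18 ± 0.15 and 9.19 ± 0.35 (SD, n = 6 each). The difference of 0.0067 had a 95% interval of -0.31 to 0.32 (limma adjusted p = 0.988), inside the 1.5-fold limits of ±0.58. The QT mice were spread on both sides of the WT mice: replicates 2 and 6 reached 9.59 each, above every WT mouse, and replicate 4 lay at 8.68, below every WT mouse.

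Erbb2 encodes the coreceptor that binds no ligand of its own and pairs with the other family members. It ran from 7.56 (median 7.65) to 7.82 in WT and from 7.38 (median 7.54) to 7.89 in QT, with means of 7.68 ± 0.11 and 7.59 ± 0.17 (SD, n = 6 each). The difference was -0.09 (95% interval -0.28 to 0.10, limma adjusted p = 0.635). Although 4 QT mice lay below the lowest WT mouse, replicate 2 was the highest of all 12 mice, and replicate 5 lay within the WT range. Erbb3 encodes the receptor whose own kinase is weak and which is best known from Schwann cells, where neuregulin drives it. It ran from 5.68 to 6.09 in WT and from 5.70 to 6.09 in QT, a difference of 0.07 (95% interval -0.12 to 0.25, limma adjusted p = 0.744). These values are below the array medians. Of 7 Schwann cell markers measured, 4 lay above the array medians and 1 was called lower (S100b, -0.64). Their mean ran from 7.07 to 7.25 in WT and from 6.93 to 7.23 in QT. Sox10, Ngfr and Mal were not above the array medians (Sox10 had means of 6.13 and 6.09). Which cells gave the S100b signal was not tested, so its call is not shown to concern Schwann cells.

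Among the ligands, Hbegf had the largest difference. It encodes heparin-binding EGF-like growth factor, which is bound by heparan sulfate and is itself induced by growth factor signals. Hbegf ran from 7.54 (median 7.88) to 8.23 in WT and from 7.89 (median 8.39) to 8.92 in QT. The QT values were 7.89, 8.90, 8.13, 8.26, 8.52 and 8.92 in replicates 1 to 6. All 6 QT mice exceeded the WT mean of 7.89 ± 0.26, and 4 exceeded the highest WT mouse, but replicates 1 and 3 lay within the WT range. The QT mean was 8.44 ± 0.42 (SD, n = 6 each). The difference of 0.55, a fold of 1.46, had a 95% interval of 0.15 to 0.94 and did not pass (unadjusted p = 0.0103, limma adjusted p = 0.134). The interval thus held small differences as well as some beyond 1.5-fold. The lowest WT values, 7.69 and 7.54, were those of replicates 5 and 6, the mice that differed in Xist, and without both the difference was 0.41 (limma adjusted p = 0.337). In size it exceeded the differences of 95.5% of all probe sets.

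The QT replicates with the highest Hbegf values stood high in some other measurements as well. QT replicates 2 and 6, at 8.90 and 8.92, were also the mice with the highest Egfr values. Endothelial markers, of which 0 of 7 were called (1 at an unadjusted p under 0.05) and 7 of 7 lay above the array medians, had their highest means in the same mice, at 8.92 and 8.80. Their range was 8.32 to 8.69 in WT and 8.36 to 8.92 in QT. In WT the highest endothelial means, 8.69 and 8.64, were those of replicates 6 and 5, the WT mice with the lowest Hbegf values. QT replicate 1, the lowest QT mouse for Hbegf at 7.89, had an endothelial mean of 8.71. The part of endothelial RNA in the Hbegf values was not tested. Macrophage markers, another possible source of Hbegf transcript, had 0 of 8 called (1 at an unadjusted p under 0.05) and overlapping means (8.26 to 8.66 in WT and 8.36 to 8.72 in QT). In QT replicates 2 and 6 the macrophage means were 8.43 and 8.41.

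Tgfa encodes TGFα, which binds EGFR alone. It ran from 6.71 (median 6.81) to 7.01 in WT and from 6.85 (median 7.04) to 7.35 in QT. All 6 QT mice exceeded the WT mean and 3 exceeded the highest WT mouse. The means were 6.82 ± 0.11 and 7.06 ± 0.19 (SD, n = 6 each). The difference of 0.24, a fold of 1.18, had a 95% interval of 0.04 to 0.44 and did not pass (unadjusted p = 0.0201, limma adjusted p = 0.188). Without WT replicates 5 and 6 together the difference was 0.21 (unadjusted p = 0.0764, limma adjusted p = 0.364). Replicate 3 held the highest value of each genotype, 7.01 in WT and 7.35 in QT. QT replicate 6, the highest mouse for Hbegf, was at 6.93.

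**Figure D2:**
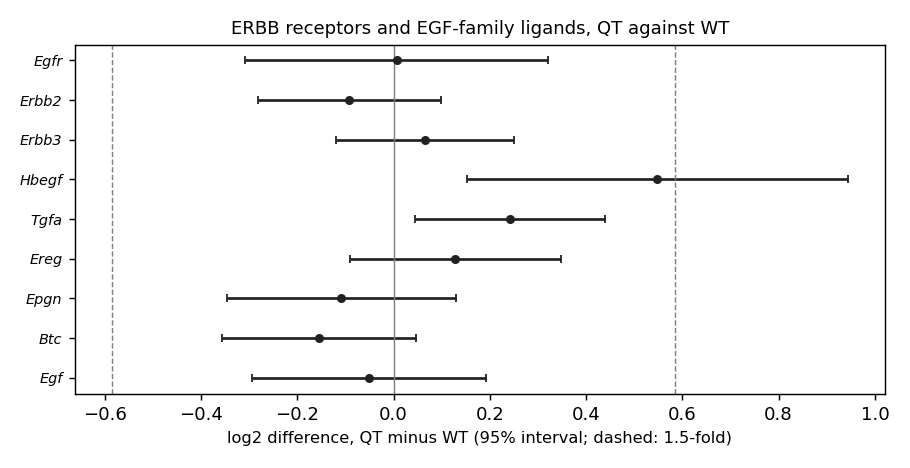
Difference of the genotype means (QT minus WT, log2 scale) with its 95% interval from limma, not adjusted for the number of genes, for the 9 receptor and ligand genes (n = 6 mice per genotype). Dashed lines mark 1.5-fold. All points are black because none passed the adjusted p. The intervals of Hbegf (0.15 to 0.94) and Tgfa (0.04 to 0.44) leave out 0, and that of Hbegf is the only one to cross a dashed line.

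The 4 other measured ligands lay below the array medians in both genotypes and were not called. Ereg encodes epiregulin, a ligand of EGFR and ERBB4. It ran from 5.57 to 6.02 in WT and from 5.71 to 6.11 in QT, a difference of 0.13 (95% interval -0.09 to 0.35, limma adjusted p = 0.554). A second probe set of the gene gave 0.17 (limma adjusted p = 0.359). Btc, encoding betacellulin, ran from 4.93 to 5.50 in WT and from 4.78 to 5.02 in QT. Its difference was -0.16 (95% interval -0.36 to 0.05, limma adjusted p = 0.421), and WT replicate 1 alone stood above 5.09. Epgn, encoding the epithelial mitogen epigen, ran from 5.02 to 5.40 in WT and from 4.70 to 5.32 in QT, a difference of -0.11 (95% interval -0.35 to 0.13, limma adjusted p = 0.657). Egf itself, abundant in kidney and salivary gland, ran from 5.14 to 5.69 in WT and from 5.24 to 5.82 in QT, a difference of -0.05 (95% interval -0.29 to 0.19, limma adjusted p = 0.861). A further probe set, shared by Egf and a second transcript, was lower still (means of 4.56 and 4.48). Keratinocytes make several of these ligands. Of 11 keratinocyte markers measured, 4 lay above the array medians, among them Krt10 (means of 6.64 and 6.45), and 2 were called lower, Sbsn and Dmkn. Krt14, Krt1, Lor and Ivl were among those that did not, with means of 5.39 to 6.12 in WT and of 5.43 to 6.26 in QT. The mean of the list ran from 6.13 to 6.46 in WT and from 5.99 to 6.23 in QT. In all, the intervals of 8 of the 9 genes stayed inside the 1.5-fold limits. For the genes below the array medians this bounds the array signal, which need not follow the transcript.

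Sequence before the transcription start was compared because it is a property the choice of genes did not use. The 250 bases upstream of the RefSeq start on GRCm38.p6 were taken, for 7 of the 10 genes. Erbb3, Ereg and Hbegf were not among them, so the comparison leaves out Hbegf, a gene above the array medians. Of the 7 genes taken, Egfr and Tgfa are printed as genes with signal above the array medians and Epgn as one below. CpG dinucleotides, frequent in promoters of broadly expressed genes, are in capitals. The Egfr window is chr11:16751953-16752202 (+ strand), the Tgfa window chr6:86194972-86195221 (+ strand) and the Epgn window chr5:91027267-91027516 (+ strand).
Egfr: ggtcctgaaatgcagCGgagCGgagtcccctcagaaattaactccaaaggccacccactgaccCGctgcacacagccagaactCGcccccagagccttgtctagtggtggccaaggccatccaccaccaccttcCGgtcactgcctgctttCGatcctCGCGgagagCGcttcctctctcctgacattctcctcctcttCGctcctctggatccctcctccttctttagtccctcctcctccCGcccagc
Tgfa: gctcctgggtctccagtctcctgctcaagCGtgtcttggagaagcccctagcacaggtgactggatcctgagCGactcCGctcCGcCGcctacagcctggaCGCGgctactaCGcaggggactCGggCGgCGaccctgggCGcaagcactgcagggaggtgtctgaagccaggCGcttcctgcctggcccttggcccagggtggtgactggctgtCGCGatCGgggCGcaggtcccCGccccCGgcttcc
Epgn: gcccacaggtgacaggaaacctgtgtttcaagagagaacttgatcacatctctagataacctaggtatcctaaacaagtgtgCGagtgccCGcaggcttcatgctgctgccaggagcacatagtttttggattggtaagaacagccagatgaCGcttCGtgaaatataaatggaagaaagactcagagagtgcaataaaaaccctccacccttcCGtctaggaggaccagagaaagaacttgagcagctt
The Egfr window held 11 CpG, the Tgfa window 19 and the Epgn window 5, where the median over 32851 such windows of all genes was 6 (quartiles 2 and 16). At least as many were found in 35.6%, 19.7% and 55.6% of all windows. Erbb2, also above the array medians, had 16. Of the other dim genes Btc had 4, and Egf had 0 at one start and 15 at another. The letters TATAAA, searched on both strands and present in 12.4% of all windows, occurred in the windows of Epgn and Areg. They were in none of the windows of the other genes taken. Epgn, Ereg, Areg and Btc follow each other on chromosome 5 with no other protein-coding gene between them. The 3 measured genes of this cluster were all below the array medians, and none was called.

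By the likeness of their deviations from the genotype means over the 12 mice, the genes closest to Hbegf among 12611 above the array medians were Odr4 (Pearson's r = 0.92), Leprot (r = 0.91), Tpmt (r = 0.90) and Triqk (r = 0.90). Those closest to Tgfa were Phc3 (r = 0.93), Efcab14 (r = 0.93), Plce1 (r = 0.91) and Oplah (r = 0.91). None of these 8 genes was called. They are the highest of many correlations over few mice and are given as a description.

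The wider pathway was read from 5 lists of named genes. The other ERBB genes, Erbb4 and the neuregulins Nrg1 to Nrg4, which are ligands of ERBB3 and ERBB4, had 0 of 5 called (1 at an unadjusted p under 0.05). By the mean over all mice, Nrg1 was the only one above the array medians. Nrg1 ran from 6.04 (median 6.29) to 6.52 in WT and from 6.20 (median 6.63) to 7.46 in QT, a difference of 0.41 (unadjusted p = 0.0403, limma adjusted p = 0.266). QT replicates 4 and 1 were its highest mice, at 7.46 and 6.97. Nrg4 differed by -0.17 (limma adjusted p = 0.423).

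**Figure D3:**
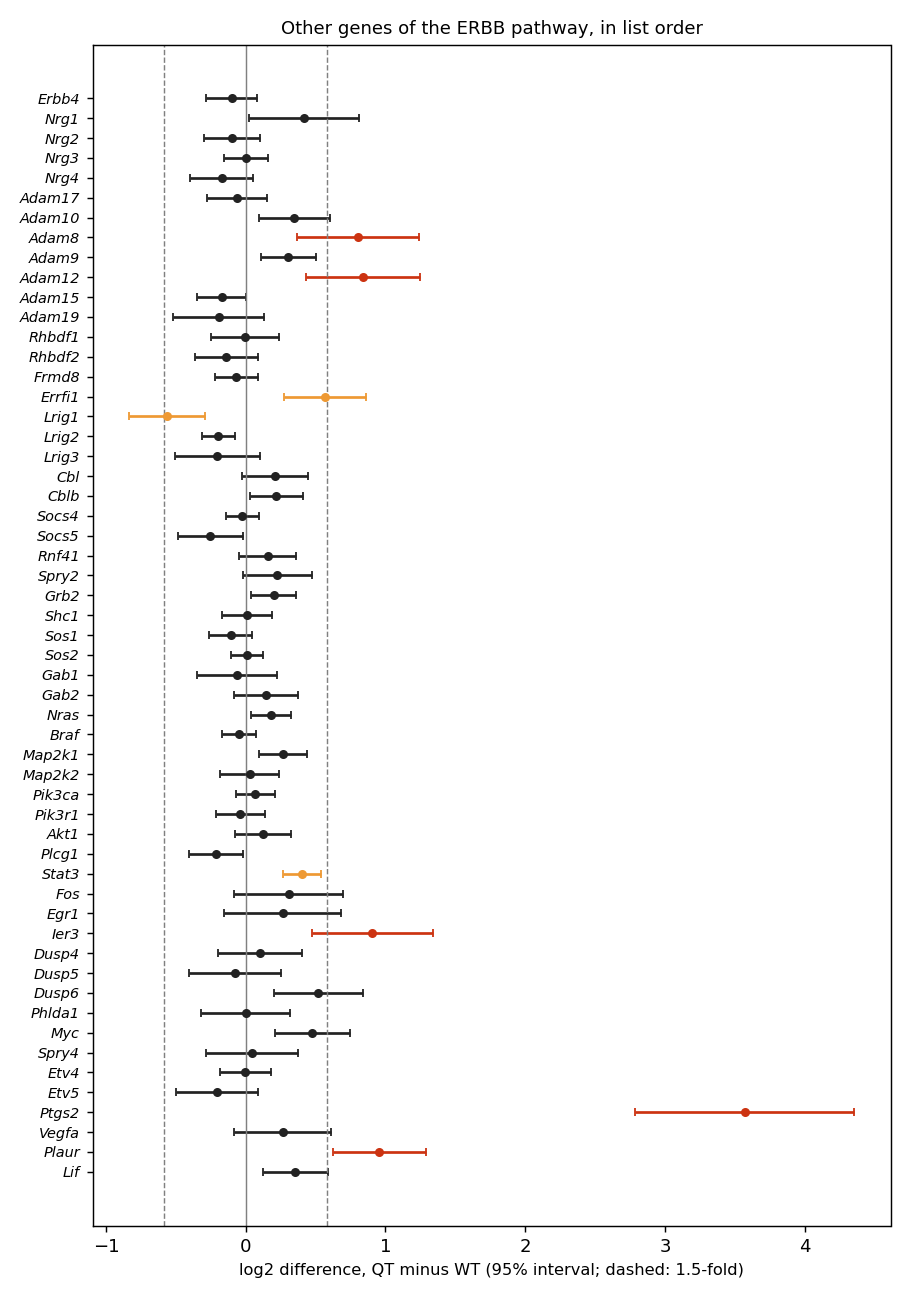
Difference of the genotype means (QT minus WT, log2 scale) with its 95% interval from limma for the other genes of the ERBB pathway, in the order of the lists: other receptor and neuregulins, sheddases and iRhom partners, inhibitors and turnover factors, adaptors and kinases, response genes. Red genes passed the adjusted p and 1.5-fold (dashed lines), orange genes the adjusted p alone, black genes neither. Ptgs2 stands apart at 3.57, and the other red genes (Adam8, Adam12, Ier3 and Plaur) lie between 0.80 and 0.95.

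Of 10 sheddases and their partners, 2 were called higher and none lower, where 0.875% of all genes were called higher. Adam17, the main sheddase of Tgfa and Hbegf products, did not pass: it ran from 8.51 (median 8.64) to 8.74 in WT and from 8.21 (median 8.58) to 8.82 in QT, a difference of -0.06 (95% interval -0.27 to 0.15, limma adjusted p = 0.801). Adam10, which sheds EGF and betacellulin, differed by 0.35 (limma adjusted p = 0.142). The iRhom genes Rhbdf1 and Rhbdf2, whose products carry ADAM17 to the cell surface, differed by -0.0050 (limma adjusted p = 0.989) and -0.14 (limma adjusted p = 0.529).

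Adam12, which encodes a protease able to shed HB-EGF, ran from 7.24 (median 7.98) to 8.41 in WT and from 8.36 (median 8.70) to 9.27 in QT. Its difference was 0.84 (95% interval 0.43 to 1.24, limma adjusted p = 0.0284), and one QT mouse, replicate 3 at 8.36, overlapped with WT. The call was lost without WT replicate 3 or 4 or without QT replicate 2, 5 or 6 (adjusted p = 0.0153 to 0.066 over the alternatives). Adam8, a protease of myeloid cells and osteoclasts, ran from 6.28 (median 6.48) to 6.83 in WT and from 6.92 (median 7.01) to 7.98 in QT, with no overlap. Its difference was 0.80 (95% interval 0.36 to 1.24, limma adjusted p = 0.0486), just under the threshold, and its call was lost when any 1 mouse other than QT replicate 2 was left out, as well as with cyclic loess normalization, with array weights and without WT replicates 5 and 6 together (adjusted p = 0.0267 to 0.147 over the alternatives). QT replicates 1 and 4, at 7.96 and 7.98, stood above the other QT mice (6.92 to 7.03). The same mice had the highest means of neutrophil markers, 10.98 and 11.12. Elsewhere this mean lay between 8.26 and 10.12 (QT) and between 8.17 and 10.08 (WT). Of these 9 markers, 0 were called (4 at an unadjusted p under 0.05) and 9 lay above the array medians. Osteoclast markers had 1 of 6 called higher, Calcr, with a mean of 8.67 to 9.94 in WT and 9.61 to 10.34 in QT, and of the same QT mice replicate 1 was the highest and replicate 4 the lowest. The part of these cells in the Adam8 values was not tested.

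Among 10 inhibitors and turnover factors of ERBB receptors none was called (5 at an unadjusted p under 0.05), but 2 passed the adjusted p at folds just under 1.5, in opposite directions. Neither held the adjusted p under all alternatives. Across all genes 4.93% passed the adjusted p. Errfi1 encodes MIG6, a cytoplasmic inhibitor of the EGFR kinase that EGFR signalling itself induces, and mice without it have joint disease. It ran from 8.85 (median 9.29) to 9.43 in WT and from 9.33 (median 9.81) to 9.99 in QT, with means of 9.21 ± 0.26 and 9.78 ± 0.24 (SD, n = 6 each). The difference was 0.57, a fold of 1.48 (95% interval 0.28 to 0.86, limma adjusted p = 0.0377), and QT replicate 1 at 9.33 was the only QT mouse within the WT range. Errfi1 no longer passed the adjusted p without WT replicate 1, 5 or 6 or without any 1 of QT replicates 2 to 6, and without WT replicates 5 and 6 together the difference was 0.42 (adjusted p = 0.0147 to 0.13 over the alternatives). Lrig1 encodes a transmembrane protein that sends ERBB receptors to degradation. It ran from 7.34 (median 7.50) to 7.89 in WT and from 6.68 (median 7.01) to 7.27 in QT, with no overlap. The difference was -0.57, a fold of 1.48 (95% interval -0.84 to -0.29, limma adjusted p = 0.0276). Lrig1 no longer passed without WT replicate 1, 3 or 4 or QT replicate 3, 4 or 5 (adjusted p = 0.0138 to 0.106 over the alternatives).

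**Figure D4:**
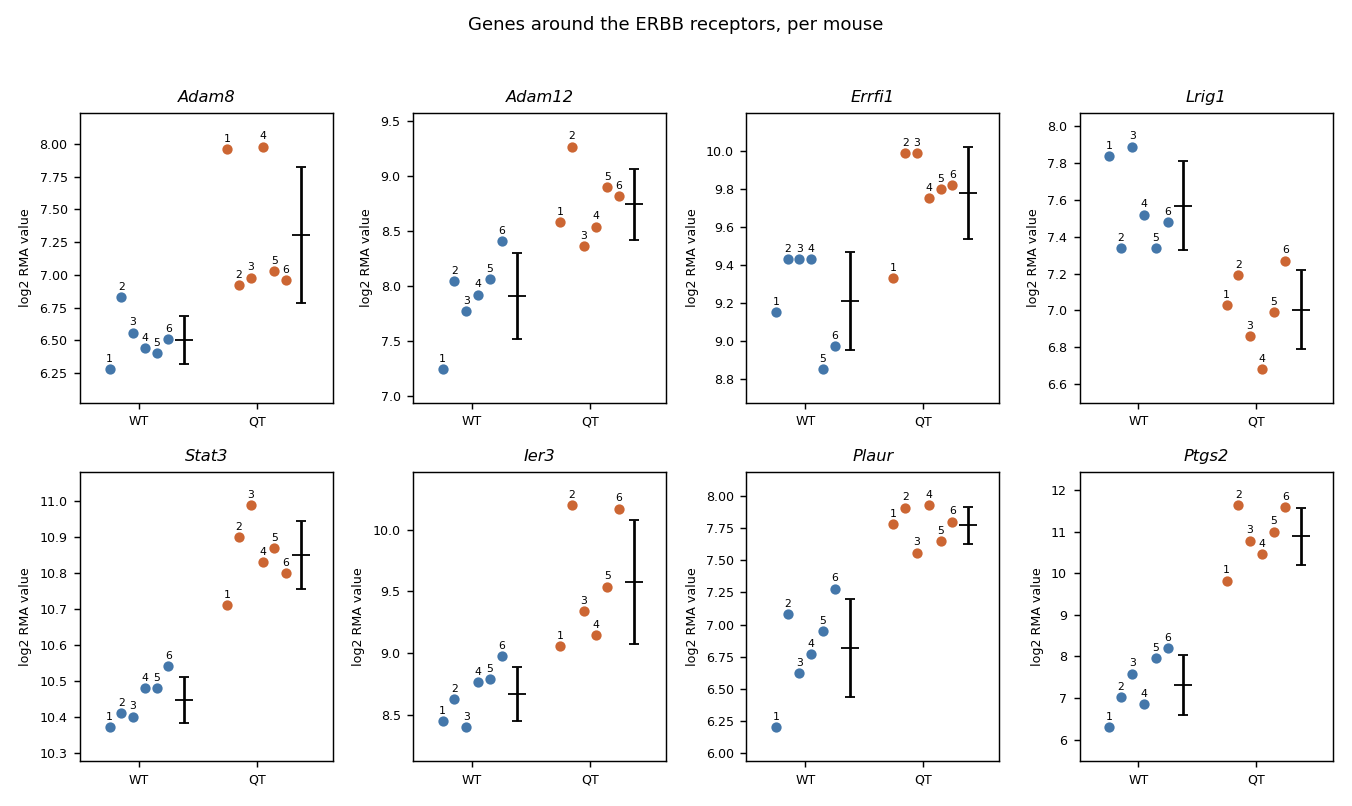
Log2 RMA value in each mouse (1 point per mouse, numbered by replicate, WT in blue and QT in orange) of the pathway genes that passed the adjusted p, with the mean and SD of each genotype (n = 6) as a black bar. The value axis differs between panels. Lrig1 is the only gene shown that is lower in QT. Adam8 is at 7.96 and 7.98 in QT replicates 1 and 4 and at 6.92 to 7.03 in the other QT mice.

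Of 15 measured adaptors and kinases that carry the signal from the receptors, none was called (5 at an unadjusted p under 0.05), and 1 passed the adjusted p alone. This was Stat3, encoding a transcription factor that EGFR and cytokine receptors activate. It ran from 10.37 (median 10.45) to 10.54 in WT and from 10.71 (median 10.85) to 10.99 in QT, with no overlap. The difference was 0.40, a fold of 1.32 (95% interval 0.27 to 0.54, limma adjusted p = 0.0039). The next largest was Map2k1, which encodes the ERK kinase MEK1, at 0.27 (limma adjusted p = 0.094).

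Of 15 measured genes that growth factor signals induce, 3 were called higher and none lower, and the median difference was 0.26. Over all genes 0.875% were called higher. The list was drawn up with earlier results of these data known, so its count is a description. Many stimuli beside EGFR ligands induce these genes. Plaur encodes the urokinase receptor. It ran from 6.20 (median 6.86) to 7.28 in WT and from 7.56 (median 7.79) to 7.93 in QT, with no overlap. The difference was 0.95 (95% interval 0.62 to 1.29, limma adjusted p = 0.0048). Ptgs2, the inducible cyclooxygenase, differed by 3.57 (limma adjusted p = 2.7e-04) and the immediate early gene Ier3 by 0.91 (limma adjusted p = 0.0277). The call of Ier3 was lost without any 1 of WT replicates 1 to 4 or of QT replicates 5 and 6 (adjusted p = 0.0148 to 0.0664 over the alternatives). Ptgs2 and Ier3 were highest in QT replicates 2 and 6, the mice with the highest Hbegf and Egfr values: 11.65 and 11.59 for Ptgs2, and 10.20 and 10.17 for Ier3. The WT mice did not repeat this for Hbegf. WT replicates 5 and 6 had the highest WT values of Ptgs2 (7.96 and 8.20) and Ier3 (8.79 and 8.98) but the lowest of Hbegf (7.69 and 7.54). For Egfr, WT replicate 5 was the lowest WT mouse (8.95) and WT replicate 6 the highest (9.41). Plaur was highest in QT replicate 4, at 7.93. Among the other genes of the list, Dusp6 (0.52, 95% interval 0.20 to 0.84, limma adjusted p = 0.0769) and Myc (0.47, limma adjusted p = 0.0554) did not pass. Nor did Fos (0.31, limma adjusted p = 0.408), Egr1 (0.26, limma adjusted p = 0.52), Spry4 (0.05, limma adjusted p = 0.913) and Etv5 (-0.21, limma adjusted p = 0.46). These genes fell outside the rule for named genes and are given as examples.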

How the data were processed

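The log2 values deposited by the authors are RMA values of 12 arrays: background-corrected, brought to the same distribution on each array and summarized over the probes of a probe set (Partek 6.6 in the submitters' processing notes). A change shared by most genes would not be seen. No genome build or annotation version is named in the sources used here. Of 41345 probe sets, the platform annotation named 23521 for 1 gene, 1820 for several and 16004 for none, and genes were named from the first kind only.

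From these values WT and QT were compared in R 4.3.3 with limma 3.58.1 (lmFit and eBayes, genotype as the only term, all probe sets). Linear models in limma were also what the study used. No filter on low values was applied. The study's methods cite another false discovery rate, and Storey's q value was run as an alternative. The other alternatives were cyclic loess, leaving out dim probe sets, a trended robust variance, array weights, no fold threshold, the replicate number as a block, all probe sets of a gene averaged, each mouse left out, and WT replicates 5 and 6 left out together. The script was tested on simulated data. All receptor and ligand genes were named. From each pathway list up to 4 called genes were named, or the 2 largest differences where none was called, with the 4 genes most like a leading receptor or ligand gene. Others named in the text illustrate roles or were chosen after their values were seen. The genes, lists and rules were chosen with earlier results of these data known. Precision is set by the number of mice, since arrays have no sequencing depth. Marker lists of other cell types were read beside the results. Mast cell markers, the list not used there, had 0 of 7 called (4 at an unadjusted p under 0.05), and 2 lay above the array medians. Their mean ran from 5.14 to 5.35 in WT and from 5.27 to 6.02 in QT, with 5 QT mice above every WT mouse. The labels call the samples of a genotype biological replicates.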

Additional observations from a re-analysis of the deposited data

Results flagged for a closer look

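In 18 groups of 6 mice (9 genes in each genotype), 2 held a mouse far from the other 5 by Dixon's test at the 95% level, and chance flags about 1 in 20. Egf was at 5.14 in WT replicate 2 and at 5.52 to 5.69 in the other WT mice. Btc was at 5.50 in WT replicate 1 and at 4.93 to 5.09 in the other WT mice. Both genes lay below the array medians, and no explanation was tested.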

How the results depend on the processing

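The count of receptor and ligand genes called was 0 in each direction under all 21 alternatives. Hbegf kept its direction, with differences of 0.41 (without WT replicates 5 and 6 together) to 0.66 (without QT replicate 1) and adjusted p-values of 0.0664 to 0.337. Tgfa ran from 0.18 to 0.28, with adjusted p-values of 0.11 to 0.364. Leaving out 1 mouse moved Epgn between -0.15 and -0.022, Btc between -0.19 and -0.074, and Egf between -0.13 and -0.0010, with none passing. Egfr ran from -0.074 to 0.11 (0.0067 with all mice) when 1 mouse was left out and lay under 0 without WT replicate 2, 3 or 5 or QT replicate 2 or 6. The count of sheddases called higher was 1 instead of 2 with cyclic loess, array weights or the replicate block and without WT replicates 5 and 6 together, and 0 to 1 when 1 mouse was left out. The call lost with the block was that of Adam8 (adjusted p = 0.147), and Errfi1 (0.0641) and Lrig1 (0.106) then missed the adjusted p. Without a fold threshold, 1 inhibitor was called higher (Errfi1), 1 lower (Lrig1) and 1 adaptor higher (Stat3). Without WT replicates 5 and 6, 1 inhibitor was called lower (Lrig1). Leaving out 1 mouse gave 0 to 1 inhibitors higher and 0 to 1 lower. The calls appeared as Errfi1 without WT replicate 2, 3 or 4 or QT replicate 1, and as Lrig1 without WT replicate 2 or 5 or QT replicate 2 or 6. The omissions of other single mice took Errfi1 out of the adjusted p threshold (up to 0.0789), and 6 omissions did so for Lrig1 (up to 0.0593). Response genes called higher numbered 2 to 4. The cause of these shifts was not tested, but several rest on folds or p-values near a threshold. The labels state no pairing of mice by replicate number. Deviations of same-numbered mice correlated at -0.21 to -0.0084, which shows no likeness between them but cannot exclude a pairing. Low signal, under the array medians, limits the readings of Erbb3, Egf, Ereg, Btc and Epgn.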

Other observations

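Outside the rule for named genes, and chosen after their values were seen, 2 pathway genes had no overlap between the genotypes without passing the adjusted p. Across all genes 4.92% had no overlap, whether or not they passed. Lrig2, a relative of Lrig1, ran from 8.26 to 8.43 in WT and from 8.09 to 8.24 in QT, a difference of -0.20 (limma adjusted p = 0.0787). The transcription factor gene Myc ran from 7.94 to 8.65 in WT and from 8.72 to 9.15 in QT, a difference of 0.47 (limma adjusted p = 0.0554).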
